A study of Mus musculus with 4 samples.

Results

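The kindlins, talin and the leukocyte integrins were examined in cultured mouse periosteal cells as 8 genes taken by symbol from the 45802 symbols of the deposited table: the kindlins *Fermt1*, *Fermt2* and *Fermt3*, the talin gene *Tln1*, the β2 integrin subunit *Itgb2* and its α partners *Itgam*, *Itgal* and *Itgax*. A value was listed in all 4 libraries for 6 of them, *Itgax* had a value in 3 libraries, and *Fermt1* had none. The cells came from the hindlimb periosteum of male Pdgfrα-mT/mG mice 9 to 10 weeks old, in which the *Pdgfra* promoter drives the CreER recombinase. They were isolated 14 days after the last of 5 daily tamoxifen doses of 150 mg/kg. Every group received tamoxifen, was expanded for 1 passage in medium with 10 ng/mL bFGF and was sorted as negative for CD31, CD45 and Ter119, the surface markers of endothelial, blood and erythroid cells. PDGFRα reporter+ cells carried GFP after recombination and PDGFRα reporter− cells still carried tdTomato, so that the populations are separated by past *Pdgfra* promoter activity and not by the protein itself. Each population was represented by 2 libraries of total RNA, and the cells of 3 to 6 mice according to the labels, or 5 to 8 according to the methods, were pooled for a single population. The libraries are numbered 2 and 3 in the table and 1 and 2 in the sample labels, and are named here by the number in the table.

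Kindlins and talin bind the cytoplasmic tail of integrin β subunits and together switch integrins from a resting to a ligand-binding state. *Fermt2* (kindlin-2) is the form of adherent, mesenchymal cells, *Fermt1* (kindlin-1) that of epithelia, and *Fermt3* (kindlin-3) that of blood cells, where it is needed for the β2 integrins. These pair the β chain CD18 (*Itgb2*) with CD11b (*Itgam*), the complement and fibrinogen receptor of macrophages and neutrophils, with CD11a (*Itgal*), the LFA-1 subunit that lymphocytes use to bind ICAMs, or with CD11c (*Itgax*), a subunit of dendritic cells and some macrophages.

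The genes differ in the sequence before their start, shown here because *Fermt3* and *Itgam* were higher in PDGFRα reporter+ cells within both library numbers whereas *Tln1* was not. RefSeq promoter windows on GRCm38.p6, the build named in the submitters' processing notes, were found for 6 of the 8 genes, and the 250 bases before the start are given for 3 of them, 5′ to 3′ on the strand of the gene. Capitals mark GGAA or its reverse complement TTCC, the core that ETS family factors recognize.
*Fermt3*, chr19:7019470-7019719, minus strand: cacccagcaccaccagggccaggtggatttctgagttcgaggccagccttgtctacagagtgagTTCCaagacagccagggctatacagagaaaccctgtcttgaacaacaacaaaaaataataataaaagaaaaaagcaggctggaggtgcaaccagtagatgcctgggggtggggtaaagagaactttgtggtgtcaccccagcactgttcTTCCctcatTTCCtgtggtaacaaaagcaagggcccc
*Itgam*, chr7:128062390-128062639, plus strand: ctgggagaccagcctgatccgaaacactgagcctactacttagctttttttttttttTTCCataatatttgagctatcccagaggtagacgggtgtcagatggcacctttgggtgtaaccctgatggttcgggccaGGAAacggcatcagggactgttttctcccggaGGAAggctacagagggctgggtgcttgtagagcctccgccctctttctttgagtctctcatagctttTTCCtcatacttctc
*Tln1*, chr4:43562584-43562833, minus strand: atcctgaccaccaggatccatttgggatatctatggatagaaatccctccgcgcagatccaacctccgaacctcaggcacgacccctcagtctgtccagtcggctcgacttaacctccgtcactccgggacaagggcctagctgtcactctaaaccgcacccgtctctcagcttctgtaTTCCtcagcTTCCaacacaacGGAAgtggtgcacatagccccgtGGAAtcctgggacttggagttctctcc

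The core occurred 3 times before *Fermt3*, 4 times before *Itgam* and 4 times before *Tln1*, on both strands together, and 93.4% of all 32851 windows of this length held it. The longer form GAGGAA, which contains the core and is the classical site of the myeloid factor PU.1, occurred 2 times before *Itgam*, 1 time before *Tln1* and not in the *Fermt3* window, compared with 23.3% of all windows that held it. The *Fermt3* window had 1 CpG dinucleotide (percentile 18.8), that of *Itgam* 6 and that of *Tln1* 12, against a median of 6 over all windows. The GC content was 50% before *Fermt3*, 49.6% before *Itgam* and 55.6% before *Tln1*, with a median of 52.4%. Of the windows not printed, that of *Fermt2* had 31 CpG (percentile 95.4), a GC content of 76% and the core 2 times. Those of *Fermt1* and *Itgax* each had 5 CpG, with a GC content of 52.4% and 50% and the core 5 and 4 times. The *Fermt2* window, chr14:45530066-45530315 on the minus strand, lies mostly inside the gene, whose range ends at 45530310. The *Itgax* window, chr7:128129300-128129549 on the plus strand, runs past the start of the gene range at 128129526. GAGGAA did not occur in these windows.

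The deposited values were log2 expression values, quantile normalized across the libraries, with a blank where no signal was found and with the linear unit not stated. The low values showed the scale. Among genes with a single annotated transcript that were seen in only 1 library, the log2 value fell with transcript length (Spearman −0.48 to −0.82 within the libraries, over 57 to 85 genes). Adding log2 of the length to the value placed 39.4% to 57.9% of these genes within 0.15 of 1 common level per library (4.46 to 4.56), and a further 8.24% to 15.8% lay 1 log2 unit above it. The values therefore behaved as reads per length, which allows levels of different genes to be compared, and the common level was taken as the worth of 1 read. The resulting read equivalents are approximate, since they rest on the longest transcript of each gene and on values changed by the normalization.

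*Fermt2* was the prevalent kindlin in both populations and had nearly the same level in each. On chromosome 14 from 45458792 to 45530310, it had log2 values of 3.50 and 3.75 in PDGFRα reporter+ libraries 2 and 3 and 3.77 and 3.47 in PDGFRα reporter− libraries 2 and 3. The populations overlapped, with means of 3.62 ± 0.18 and 3.62 ± 0.21 (SD, n = 2). The log2 fold change, counted as positive where PDGFRα reporter+ cells had the higher mean, was 0.0038 with a standard error (SE) of 0.19 and a 95% interval from −0.50 to 0.50 by limma. The libraries numbered 2 gave −0.27 and those numbered 3 gave 0.28.

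*Fermt3*, which the study itself selected from these libraries, had the largest population difference of the kindlins. The gene lies on chromosome 19 from 6998958 to 7019469, overlapping *Trpt1* at one end. The log2 values were −0.24 and 1.09 in PDGFRα reporter+ libraries 2 and 3 and −1.60 and −0.23 in PDGFRα reporter− libraries 2 and 3. Each library numbered 3 was higher than the library numbered 2 of its population, and PDGFRα reporter− library 3 lay at the level of PDGFRα reporter+ library 2, so that the populations overlapped. Within a number the difference was nearly the same, 1.36 in the libraries numbered 2 and 1.32 in those numbered 3. The log2 fold change was 1.34 (SE 0.70, 95% interval −0.54 to 3.22), a 2.53-fold higher level in PDGFRα reporter+ cells that did not pass limma (adjusted p = 1, unadjusted p = 0.122). The difference between the library numbers was of the same size, 1.33 among PDGFRα reporter+ and 1.37 among PDGFRα reporter− libraries. *Fermt3*, *Itgam* and *Itgb2* were higher in number 3 than in number 2 by at least 0.5 in both populations, as were 12.4% of all genes. *Trpt1*, a tRNA phosphotransferase gene whose reads might be shared where the genes overlap, had values of 1.47 and 0.87 for PDGFRα reporter+ and 1.25 and 1.50 for PDGFRα reporter− cells. Sharing of reads between these genes was not tested.

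**Figure D1:**
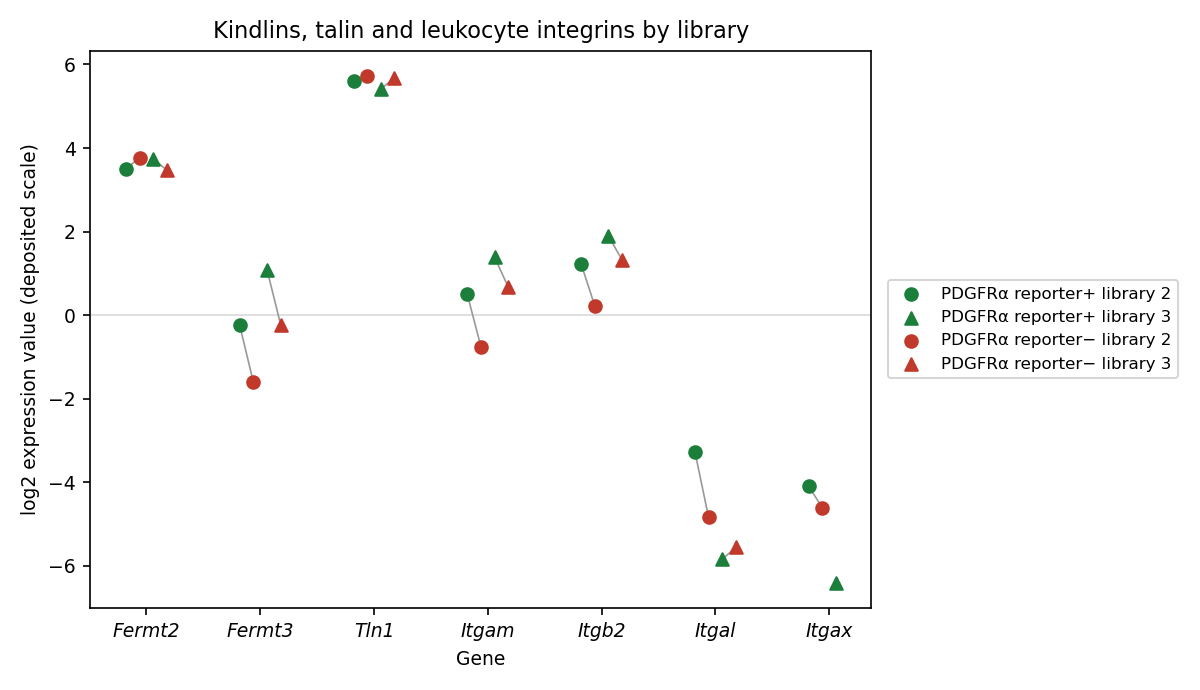
Log2 expression value (vertical axis) of the 7 genes with a value, by library, with circles for libraries numbered 2, triangles for those numbered 3, green for PDGFRα reporter+ and red for PDGFRα reporter− cells; gray lines join libraries of the same number. The lines of *Fermt3* are nearly parallel (1.36 and 1.32), whereas those of *Fermt2* slope in opposite directions.

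By limma without a block for the library number, the adjusted p was under 0.05 for 0 of the 14415 genes listed in every library (background 0%), whereas 131 (0.909%) passed at an unadjusted 0.05. None of the 6 genes examined here was among them. With the library number as a block, limma called 0.153% of all genes as higher and 0.0486% as lower at an adjusted p under 0.05, again none of the 6, while *Fermt3*, *Itgam* and *Itgb2* were higher at an unadjusted p under 0.05, beside 3.36% of all genes. None of the 6 had both PDGFRα reporter+ libraries above both PDGFRα reporter− libraries, as 7.59% of all genes did. A log2 fold change above 2 SD of all genes, 0.83, was found for *Fermt3* and *Itgam*, beside 3.36% of all genes. *Fermt3*, *Itgam* and *Itgb2* were higher in PDGFRα reporter+ cells by at least 0.5 within both library numbers, as were 3.01% of all genes, and *Fermt3* by at least 1, as were 0.95%. Genes near *Fermt3* in level showed few differences of this size: of 1065 genes with a mean within 0.5 of its own, 5 had a log2 fold change at least as high. The study picked *Fermt3* from genes it found to be higher in these same libraries. Its high place among all genes therefore follows in part from that choice and carries no test.

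The kindlin balance varied between libraries of both populations. On the linear scale, *Fermt3* made up 6.97% and 13.7% of the summed level of *Fermt2* and *Fermt3* in PDGFRα reporter+ libraries 2 and 3, and 2.36% and 7.16% in PDGFRα reporter− libraries 2 and 3. *Fermt2* thus exceeded *Fermt3* in every library, by 6.32-fold to 41.4-fold. The log2 value of *Fermt3* minus that of *Fermt2* gave a population difference of 1.34 on average (1.63 and 1.04 within numbers 2 and 3). Since libraries of different populations overlapped, the exact two-sided permutation test gave p = 0.667, where the smallest p that 2 libraries against 2 can give is 0.333. *Fermt1* was blank in all libraries. Of 6 epithelial marker genes, *Krt14* was blank throughout and none of the others had a value in all libraries.

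*Tln1*, talin-1, the partner of the kindlins on the integrin tail, was among the most abundant genes. On chromosome 4 from 43531513 to 43562583, it had log2 values of 5.59 and 5.42 in the PDGFRα reporter+ and of 5.72 and 5.67 in the PDGFRα reporter− libraries, at percentiles 96.0 to 96.9 of all genes listed there. Both PDGFRα reporter+ libraries lay below both PDGFRα reporter− libraries, as for 8.1% of all genes. Its log2 fold change was small, −0.19 (SE 0.15, 95% interval −0.59 to 0.21), with −0.13 and −0.26 within the numbers, and did not pass limma (adjusted p = 1). *Tln1* exceeded *Fermt2* by 3.18-fold to 4.61-fold in the libraries.

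The β2 chain *Itgb2* and the α chain *Itgam* followed the order of *Fermt3* over the libraries, with smaller population differences. *Itgb2*, on chromosome 10 from 77530329 to 77565708, had log2 values of 1.23 and 1.90 in PDGFRα reporter+ libraries 2 and 3 and 0.23 and 1.32 in PDGFRα reporter− libraries 2 and 3. *Itgam*, on chromosome 7 from 128062640 to 128118491, had values of 0.50 and 1.38 in PDGFRα reporter+ and −0.76 and 0.67 in PDGFRα reporter− libraries. For both, PDGFRα reporter− library 3 lay just above PDGFRα reporter+ library 2, so that the populations overlapped. For *Itgb2* the log2 fold change was 0.79 (SE 0.48, 95% interval −0.48 to 2.06, adjusted p = 1 by limma), with 1.00 within number 2 and 0.57 within number 3. For *Itgam* it was 0.99 (SE 0.62, 95% interval −0.66 to 2.63, adjusted p = 1 by limma), with 1.26 and 0.71. The chains kept a narrow ratio, with *Itgb2* above *Itgam* by 1.43-fold to 1.98-fold in the libraries.

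*Itgal* and *Itgax* were near the bottom of the range. *Itgal*, on chromosome 7 from 127296139 to 127335137, had log2 values of −3.26 and −5.84 in PDGFRα reporter+ and −4.83 and −5.55 in PDGFRα reporter− libraries, and its difference was 1.57 within number 2 and −0.28 within number 3. The libraries numbered 3 were here the lower ones, in contrast to *Fermt3*, *Itgam* and *Itgb2*. The log2 fold change was 0.64 (SE 1.08, adjusted p = 1 by limma), below the SD of 1.82 between the PDGFRα reporter+ libraries. *Itgax*, on chromosome 7 from 128129526 to 128150657, had values of −4.10 and −6.40 in PDGFRα reporter+ libraries 2 and 3, −4.60 in PDGFRα reporter− library 2 and a blank in PDGFRα reporter− library 3. Among the α chains of β2 integrins (*Itgam*, *Itgal*, *Itgax* and *Itgad*), *Itgam* made up 87.1% to 90.8% of the summed linear level in the libraries, and it exceeded *Itgal* by 13.6-fold to 150-fold.

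The depth behind these values was very unequal. *Fermt3* rested on about 115 and 269 read equivalents in PDGFRα reporter+ libraries 2 and 3 and on about 42.0 and 110 in PDGFRα reporter− libraries 2 and 3. *Itgam* and *Itgb2* rested on about 118 to 518 and *Fermt2* on about 1566 to 1918. *Itgal* rested on about 3.86 to 24.8 and *Itgax* on about 2.03 to 10.8, the thinnest support of the 7 genes with a value.

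**Figure D2:**
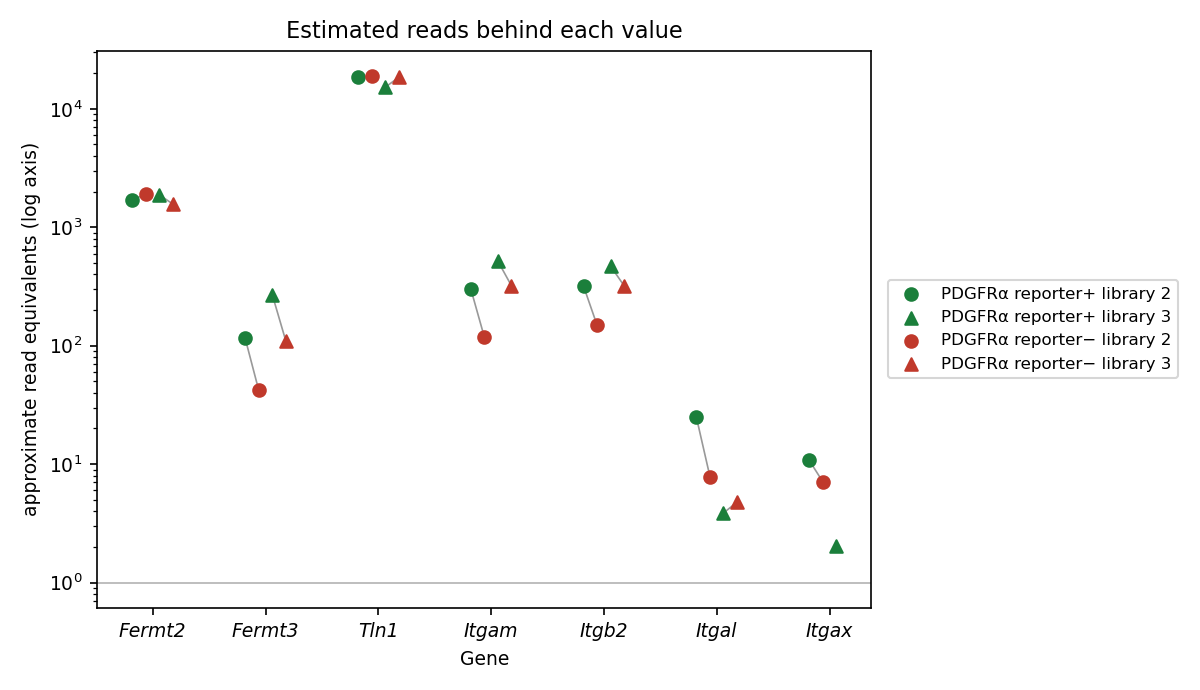
Approximate read equivalents (vertical axis, log scale) behind each value of the 7 genes, with symbols and lines for libraries and numbers as labeled; the horizontal line marks 1 read. *Fermt3* lies between about 42.0 and 269, and *Itgal* and *Itgax* lie within a few to 24.8.

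The levels were in the same order in both populations, from *Tln1* over *Fermt2*, *Itgb2*, *Itgam* and *Fermt3* to *Itgal*. In the percentiles of all genes with a value, *Fermt3* ranged from 24.4 to 44.6, *Itgam* from 28.8 to 48.7 and *Itgb2* from 35.8 to 56.4. Within each library *Fermt3* was the lowest of these 3 and *Itgb2* the highest, although their ranges over libraries overlapped.

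*Fermt3* was next set against its integrin partners inside each library, which cancels any factor that the genes share there. The log2 value of *Fermt3* minus that of *Itgam* was −0.74 and −0.30 in PDGFRα reporter+ libraries 2 and 3 and −0.84 and −0.90 in PDGFRα reporter− libraries 2 and 3. The population difference was 0.35 on average, 0.10 within number 2 and 0.60 within number 3 (exact two-sided permutation p = 0.333, the smallest possible). Against *Itgb2* the corresponding difference was 0.55, with 0.36 and 0.74 within the numbers. Against the mean of *Itgam*, *Itgb2* and *Itgal* it was 0.53, with 0.08 and 0.98 (exact permutation p = 0.667), with an SD of 1.18 between the PDGFRα reporter+ libraries. It turned to −0.30 without PDGFRα reporter+ library 3 and was 1.37 without PDGFRα reporter+ library 2. The population difference of *Fermt3*, 1.34, became 0.35 after subtracting *Itgam* and 0.55 after subtracting *Itgb2*. Subtracting *Fermt2* left it at 1.34 and subtracting *Tln1* gave 1.53. With *Itgal* it was 0.70, with −0.21 within number 2 and 1.60 within number 3. Each average equals the log2 fold change of *Fermt3* minus that of the other gene, so any gene with a positive fold change lowers it. Whether the genes share a cause was not tested. Over the 17 differences between genes compared in this way, the Benjamini-Hochberg adjusted exact permutation p was 0.809 to 1.

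Genes of macrophages differed in the same direction. Of 15 macrophage genes, all had a value in all libraries, 15 had a higher mean in PDGFRα reporter+ cells, beside 49.1% of all genes, and 14 were higher within both library numbers, as were 22.1% of all genes. The median log2 fold change was 1.00, compared with −0.0035 over all genes tested. By limma without a block, 0 passed after adjustment and 5 passed at an unadjusted p of 0.05, beside 0.909% of all genes. With the library number as a block, 2 passed, *Tyrobp* and *C1qb* (adjusted p = 0.0437 by limma for each), beside 0.153% of all genes called as higher. With the block and no variance trend, where 0 genes passed (smallest adjusted p = 0.463 by limma), both calls were lost. The summed linear level of the list, to which the lysozyme gene *Lyz2* contributed most, was 249 and 292 in PDGFRα reporter+ and 99.5 and 187 in PDGFRα reporter− libraries. Examples are *Adgre1* (F4/80) with a log2 fold change of 1.13, *Csf1r* (the CSF1 receptor) with 0.83, *Spi1* (PU.1) with 1.18 and *Ptprc* (CD45, a marker the sort selected against) with 0.93. The log2 fold change of *Fermt3* was larger than that of 13 of the 15 genes and smaller than that of *Aif1* (1.50) and *C1qb* (1.48). *Aif1* rested on few reads, about 1.75 read equivalents in PDGFRα reporter− library 2. Its difference was 2.50 within number 2 and 0.50 within number 3. Of the 6 macrophage genes that *Fermt3* was set against, *Fermt3* minus *Spi1* varied least over the libraries, from 0.38 to 0.70, while *Fermt3* alone spanned −1.60 to 1.09. The other ratios had wider ranges, from −1.60 to −1.08 for *Adgre1*, 0.70 to 1.48 for *Ptprc*, −1.49 to −0.52 for *Csf1r*, −7.89 to −6.79 for *Lyz2* and −3.48 to −2.36 for *Tyrobp*. The macrophage genes' part in the values of *Fermt3*, *Itgam* and *Itgb2* was not tested. In bulk RNA, more cells of a type and more RNA per cell cannot be told apart.

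**Figure D3:**
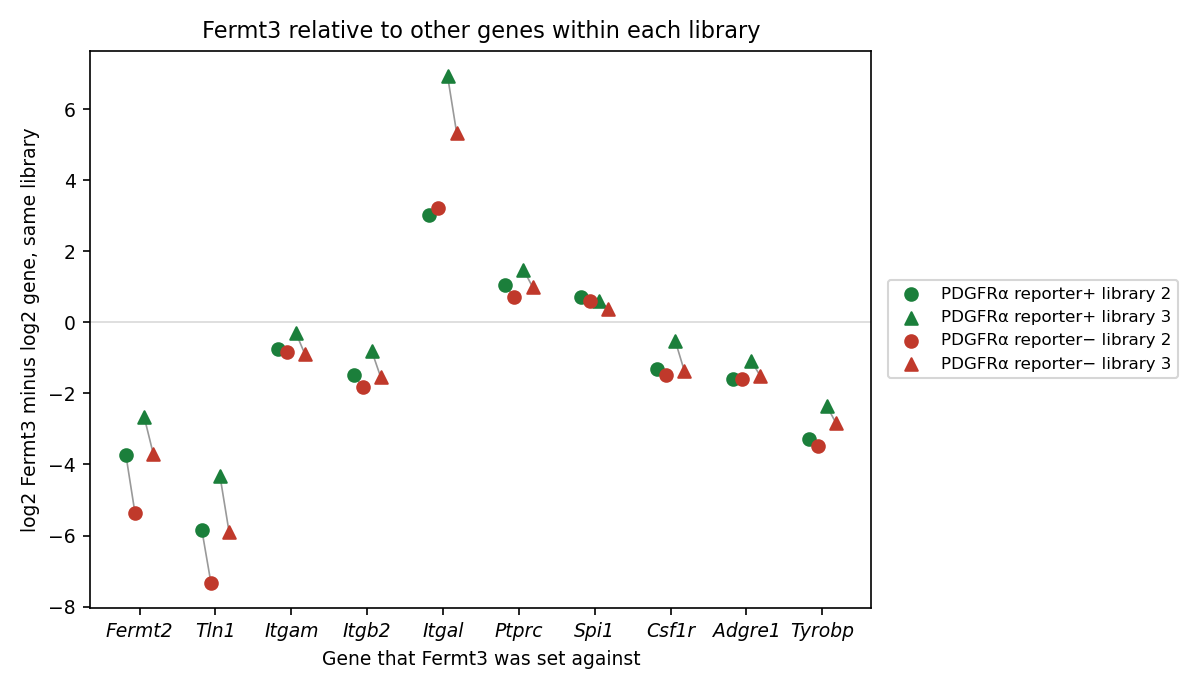
Log2 value of *Fermt3* minus that of the gene named on the horizontal axis in the same library, with circles for libraries numbered 2, triangles for those numbered 3, green for PDGFRα reporter+ and red for PDGFRα reporter− cells. Against *Fermt2* and *Tln1* the libraries spread over more than 2 log2 units, and against *Spi1* they lie between 0.38 and 0.70. The spread is widest against *Itgal*, from 3.02 to 6.93.

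Markers of other blood cells had values in fewer libraries. None of 8 neutrophil genes and 5 B cell genes had a value in all libraries, and *S100a9* and *Ms4a1* were blank throughout. The neutrophil gene *S100a8* had −4.21 and 1.39 in PDGFRα reporter+ libraries 2 and 3, a blank in PDGFRα reporter− library 2 and −1.14 in PDGFRα reporter− library 3, so that it was above *Fermt3* in PDGFRα reporter+ library 3. Of 6 T cell genes only the kinase gene *Lck* had a value in all libraries, with a log2 fold change of 0.17, and *Cd3e*, *Cd3g* and *Cd8a* were blank. Among 6 megakaryocyte and platelet genes, *Gp9* and *Gp6* were blank throughout, while *Pf4*, a chemokine that macrophages also express, had values of 1.10 and 0.72 in PDGFRα reporter+ and −0.94 and −0.95 in PDGFRα reporter− libraries (log2 fold change 1.86, adjusted p = 1 by limma and 0.0345 with the block, a call lost without the variance trend). The platelet gene *Treml1* had −1.13 and −2.95 in PDGFRα reporter+ and −2.89 and −4.13 in PDGFRα reporter− libraries, a log2 fold change of 1.47. *Gp1bb*, the remaining one with a value in all libraries, had −0.10. All 8 stromal genes examined had values in all libraries, with *Col1a1* between 7.44 and 7.85 and *Pdgfra* between 7.44 and 7.87. The median log2 fold change of these stromal genes was −0.06, over a range from −1.14 for *Postn* (periostin) to 1.39 for *Dcn* (decorin) and 1.83 for *Lum* (lumican). *Lum* passed limma with the block (adjusted p = 0.0121), beside 0.153% of all genes called as higher, but neither without the block (adjusted p = 1) nor with the block and no variance trend. Of 6 endothelial genes, 5 were lower in PDGFRα reporter+ cells within both numbers, beside 24.8% of all genes, and the median log2 fold change was −2.50, at levels down to −6.40 for *Cdh5*. By limma without a block 4 of them passed at an unadjusted p of 0.05, beside 0.909% of all genes, and 0 after adjustment. These 4, *Pecam1*, *Cdh5*, *Kdr* and *Emcn*, rested on only about 2.0 to 9.4 read equivalents in the PDGFRα reporter+ libraries. The 4 osteoclast genes tested had higher means in PDGFRα reporter+ cells, beside 49.1% of all genes, with a median of −0.16 within number 2 and 2.39 within number 3. Within both numbers 2 of them were higher, beside 22.1% of all genes, and the log2 fold change of *Oscar* was only 0.07. Whether these cell types contribute to the values of the kindlins and integrins was not tested.

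The other genes that act on integrin activation were examined as a list of 24. Of these, 23 had a value in all libraries, 7 with a higher and 16 with a lower mean in PDGFRα reporter+ cells, and the median log2 fold change was −0.12. A higher mean was found for 49.1% of all genes. None passed limma without a block, with 0 genes under 0.05 before as well as after adjustment. With the block 0 passed after adjustment, and *Vcl*, *Dok1* and *Pxn* were under 0.05 before adjustment, each lower in PDGFRα reporter+ cells, beside 2.97% of all genes. Within both library numbers 2 were higher, beside 22.1% of all genes, and 11 were lower, beside 24.8% of all genes. Those higher within both were *Fyb*, an adaptor of hematopoietic cells (0.48 and 0.77), and *Skap2*, its adaptor partner (0.04 and 0.14). *Apbb1ip* (RIAM), which brings talin to the membrane by way of Rap1 and is abundant in leukocytes, was lower, with differences of −0.84 and −0.09. Others lower within both numbers include *Vcl* (vinculin) with −0.42 and −0.40, *Pxn* (paxillin) with −0.27 and −0.34 and *Flna* (filamin A) with −0.29 and −0.17. The focal adhesion genes *Ptk2* (−0.11 and 0.09), *Parva* (−0.25 and 0.02) and *Lims1* (−0.01 and 0.12) had opposite signs within the numbers. *Ilk*, whose protein binds kindlin-2, had nearly equal values, from 4.97 to 5.00 in the 4 libraries.

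**Figure D4:**
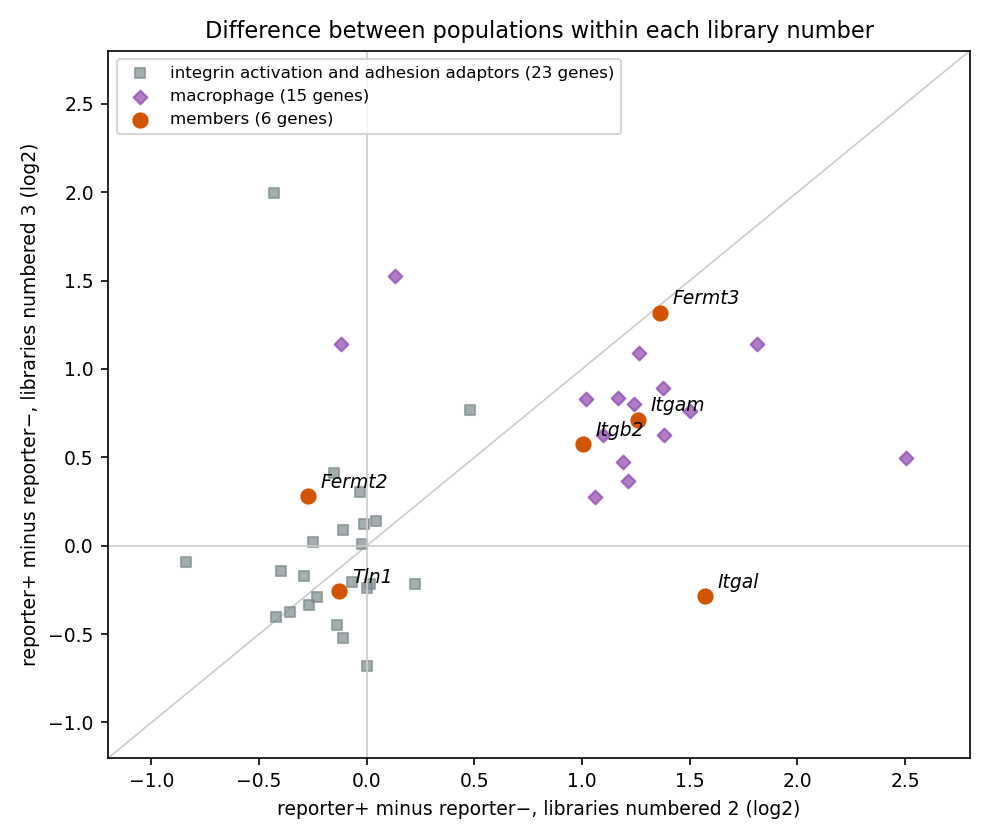
Difference between PDGFRα reporter+ and PDGFRα reporter− cells (log2) in the libraries numbered 2 (horizontal axis) and numbered 3 (vertical axis) for 6 kindlin, talin and integrin genes, 23 integrin activation and adhesion genes (gray squares) and 15 macrophage genes (purple diamonds); the diagonal marks equal differences. *Fermt3*, *Itgam* and *Itgb2* lie at upper right, *Fermt2* and *Tln1* lie near 0, and *Itgal* is positive in the libraries numbered 2 only.

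Other integrins of blood cells had no common direction, with 4 higher and 2 lower means in PDGFRα reporter+ cells among the 6 with a value in all libraries and a median log2 fold change of 0.05. Over all genes, 49.1% had a higher mean. *Itgb1*, the β1 chain that stromal cells share, had values of 6.64 to 6.87 and a log2 fold change of 0.01. *Itgb3*, the β3 chain of platelets, osteoclasts and some stromal cells, had differences of −0.54 and −0.61 within the numbers. *Itga4*, an α chain of lymphocytes and monocytes, gave 1.36 and −0.12. The ligands of the β2 integrins gave 4 higher and 3 lower means among the 7 genes tested, beside the 49.1% of all genes that were higher, with a median log2 fold change of 0.08. *Icam1* had values of 3.10 and 3.30 in PDGFRα reporter+ and 2.43 and 3.20 in PDGFRα reporter− libraries, and *C3*, the complement component whose fragment iC3b binds CD11b, had 5.39 and 7.51 in PDGFRα reporter+ and 4.59 and 7.51 in PDGFRα reporter− libraries, higher in number 3 in both populations. Fibrinogen genes (*Fga*, *Fgb* and *Fgg*) had a value only in the libraries numbered 3.

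The genes whose pattern over the 4 libraries was most like that of *Fermt3* were found by the root mean square (RMS) difference of centered log2 values, among the 10224 genes whose mean was not below 0. The 10 closest were, in order, *Mmp13* (RMS 0.08), *Col14a1* (0.17), *Lilr4b* (0.19), *Lcp1* (0.20), *Adgre1* (0.21), *Pirb* (0.22), *Enpep* (0.22), *Lcn2* (0.22), *Clec4d* (0.23) and *Itgam* (0.24), compared with a median of 0.95. They include the collagenase gene *Mmp13* and the collagen gene *Col14a1* as well as the leukocyte genes *Lcp1* (plastin-2), *Adgre1* and *Clec4d*. *Mmp13* had log2 values of 5.06 and 6.34 in PDGFRα reporter+ and 3.88 and 5.15 in PDGFRα reporter− libraries. *Itgb2* ranked 30 (RMS 0.37), *Fermt2* 5827 (0.97) and *Tln1* 7860 (1.06). The minimum mean leaves out *Fermt3* itself and others at its level. In an alternative chosen after the data were seen, over all 14414 other genes, 2 of the 10 closest meet it, *Mmp13* and *Col14a1*. These 10 were, in order, *Msr1* (RMS 0.08), *Gm33153* (0.08), *Mmp13* (0.08), *Rad51ap1* (0.11), *Cd40* (0.11), *Spi1* (0.12), *Sema4d* (0.13), *Lyl1* (0.13), *Ncf4* (0.16) and *Col14a1* (0.17). With 4 libraries the measure is a description and carries no test.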

How the data were processed

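Total RNA of 4 libraries was sequenced by the authors as stranded paired-end Illumina libraries. Per the labels' processing notes, bcl2fastq 2.17.1.14, Partek 7.0 and GRCm38.p6 were used, and the aligner, the counting and the annotation are not given in the sources used here. The study restricted its own gene count to functionally annotated genes present in every sample, a restriction on annotation that was not applied here. The deposited log2 values were quantile normalized by the authors, and the depth of the libraries is not stated. Columns show population and a number other than that of the labels, so that libraries were assigned to populations only. The methods describe biological replicates for in vitro work in general and pooled mice for each population, but not which preparation gave which library, and p-values measure the spread between these libraries.

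Log2 fold changes were fitted with limma 3.58.1 in R 4.3.3 (lmFit, eBayes with a variance trend, two-sided, no block) over 14415 genes listed in every library, with Benjamini-Hochberg adjustment and a threshold of 0.05. Differences between genes within a library were compared by an exact permutation test. On simulated data for these 14415 genes with 200 changed by 2 log2 units, 189 were called when libraries differed only by noise. With the measured difference between library numbers added, 0 were called without and 192 with a block for the number. Read equivalents were 2 to the power of value plus log2 of the longest GENCODE M21 transcript minus the level of 1 read. Promoters and positions are from RefSeq for GRCm38.p6, and the *Itgb2* and *Itgal* windows were not used here. Summaries were made in Python 3.11.15 with pandas 2.3.3 and plotted with matplotlib 3.10.9.

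Named are the 8 members, genes of the lists, overlapping *Trpt1* and the 10 genes most like *Fermt3* with and without the minimum mean. Members, lists and tests were chosen with earlier results of these data known. Alternatives were a replicate block, no variance trend, median centering, a pseudocount of 1, a minimum mean of 0, blanks set to the lowest value and leaving out each library.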

Additional observations from a re-analysis of the deposited data

Results flagged for a closer look

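*Fermt2* and *Itgal* were singled out because their difference between populations had opposite signs within the 2 library numbers. For *Fermt2* the difference within number 2 minus that within number 3 was −0.554, and for *Itgal* it was 1.85. Whether the differences within the numbers differ was not tested. The *Itgal* values rest on about 3.86 to 24.8 read equivalents, and those of *Fermt2* on about 1566 to 1918.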

How the results depend on the processing

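Without a block for the library number, 0 genes passed the threshold under each alternative run, and no member passed under any. With the replicate block 29 genes passed (22 higher and 7 lower in PDGFRα reporter+ cells), and the adjusted p was 0.0896 for *Fermt3*, 0.21 for *Itgam* and 0.247 for *Itgb2* by limma; with the block and no variance trend, chosen after seeing the data, 0 genes passed and 941 had an unadjusted p under 0.05. Libraries with the same number deviated together (correlation 0.681 across genes, 2 pairs), and both populations were sorted from the same kind of cell suspension, but the sources do not say which of these libraries shared one. The log2 fold change of *Fermt3* fell to 0.61 with a pseudocount of 1, where *Itgam* had 0.54, *Itgb2* 0.53 and *Itgal* 0.04, *Fermt3* minus *Fermt2* gave 0.61 and *Fermt3* minus the integrins 0.24. With each library left out, which unbalances the numbers, the log2 fold change ranged from 0.65 (without PDGFRα reporter− library 2) to 2.03 (without PDGFRα reporter− library 3) for *Fermt3*, with 0.67 and 2.00 without PDGFRα reporter+ library 3 and 2, from 0.27 to 1.70 for *Itgam* and from 0.24 to 1.34 for *Itgb2*, without a change of sign. It ranged from −0.28 to −0.10 for *Tln1*, from −0.15 to 0.16 for *Fermt2* and from −0.65 to 1.93 for *Itgal*, the last 2 with changes of sign (−0.12 and −0.15 for *Fermt2* without PDGFRα reporter+ library 3 and PDGFRα reporter− library 3, and −0.65 for *Itgal* without PDGFRα reporter+ library 2). *Fermt3* minus *Fermt2* ranged from 0.50 to 2.17 and *Fermt3* minus the integrins from −0.30 (without PDGFRα reporter+ library 3) to 1.37. *Fermt3* and *Itgal*, with means below 0, had no value under the minimum mean of 0. With blanks at the lowest value, *Itgax* had a log2 fold change of 2.09 (SE 2.24, adjusted p = 1 by limma), which depends on the value set.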
